A study of Homo sapiens with 12 samples.

Results

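DNA methylation and Polycomb repression are the main routes by which mammalian cells hold genes silent through cell division, and the mRNAs of 10 enzymes and cofactors of these routes were followed here under hypoxia. They are DNMT1, DNMT3A, DNMT3B, UHRF1, TET1, TET2, TET3, EZH2, EZH1 and SUZ12, chosen by name, and all 10 were among the 25369 genes of the count table. The libraries were poly(A)+ RNA-seq of 3 established human cancer lines, RKO (colon carcinoma), A549 (lung adenocarcinoma) and H460 (large cell carcinoma of the lung). Each line was sampled in normoxia and after 24 h at 1% O2 (hypoxia), with 2 replicates a group, 6 groups and 12 libraries in all. RKO and A549 cells grew in DMEM and H460 cells in RPMI, so line and medium cannot be told apart where H460 is compared with another line. The study describes the pairs as biological duplicates made independently.

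DNMT1 copies methylation onto the new DNA strand behind the replication fork, and UHRF1 brings it there by binding hemimethylated DNA. DNMT3A and DNMT3B add methylation to unmarked cytosines. The TET enzymes oxidize methylated cytosine and so start its removal, and they need oxygen, iron and alpha-ketoglutarate to work. EZH2 and EZH1 are the alternative catalytic subunits of Polycomb repressive complex PRC2, which methylates histone H3, and SUZ12 is the scaffold that either of them requires. EZH2 is the form typical of dividing cells, whereas EZH1 is also found in resting cells.

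Library totals ran from 27350424 to 41757584 counts. The 9 hypoxia markers summed to 74.7 to 246 TMM-scaled RPKM in the normoxia libraries (reads scaled by gene length and library total, with library factors from the trimmed mean of M values) and to 612 to 1618 in the hypoxia libraries. The markers CA9, NDRG1, PDK1, SLC2A1 and VEGFA were called higher in all 3 lines by the test described below. CA9 rose most, at log2 fold changes of 4.45 ± 0.31 (RKO), 5.65 ± 0.37 (A549) and 6.81 ± 0.28 (H460). Of the 9 markers, 7 were tested in RKO and 9 in each other line. All those tested were called higher in RKO and H460, but 2 of the 9 were not called in A549. In A549 the marker sum was 735 in hypoxia replicate 1 and 1281 in replicate 2, so these libraries stood apart from each other. Of the tissue markers, 5 of 6 colon markers were under 0.5 CPM in all RKO libraries (counts scaled to the library total with the same library factors). CDX2 carried the sum of 4.01 to 6.61 RPKM, with 2 to 5 of the 6 at 0. In A549, 5 of 7 lung markers were under 0.5 CPM in every library and KRT7 made up nearly all of the sum of 1502 to 2162 RPKM. In H460, 4 to 6 of the 7 were under 0.5 CPM and the sum was 9.36 to 11.2 RPKM. There NKX2-1, the lung lineage factor, was at 2 and 0 counts in normoxia and at 87 and 98 counts in hypoxia. It passed the filter on low counts only through its hypoxia libraries, so no test result is given for it.

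In H460 cells, 9 of the 10 mRNAs changed at 24 h of hypoxia, 4 higher (TET2, TET1, EZH1, DNMT3A) and 5 lower (UHRF1, DNMT3B, EZH2, DNMT1, TET3). In RKO cells 2 were higher (EZH2, EZH1) and 1 was lower (UHRF1). In A549 cells none passed. A gene was called when edgeR's quasi-likelihood test on the line's 4 libraries gave a Benjamini-Hochberg adjusted p under 0.1 over all genes tested and the fold change was over 1.5. By this rule 18.8% of 12817 genes tested in RKO were higher and 15.1% lower, 2.22% and 0.456% of 14251 in A549, and 24.6% and 27.3% of 14080 in H460. Against these shares, 9 of 10 in H460 is a larger part than the 2 directions take together among all genes. The 10 genes were chosen with earlier results of these data known, so this larger part is a description and no test of the set. The counts of 3 of 10 in RKO and 0 of 10 in A549 are near the background. The 2 groups of a line did not overlap for 8 of the 10 genes in RKO, 1 in A549 and 10 in H460, where 70.5%, 49.9% and 86.4% of all genes tested had groups that did not overlap, so with 2 libraries a group such separation was common. In bulk RNA, fewer cells of a given state and less of an mRNA per cell cannot be told apart.

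**Figure D1:**
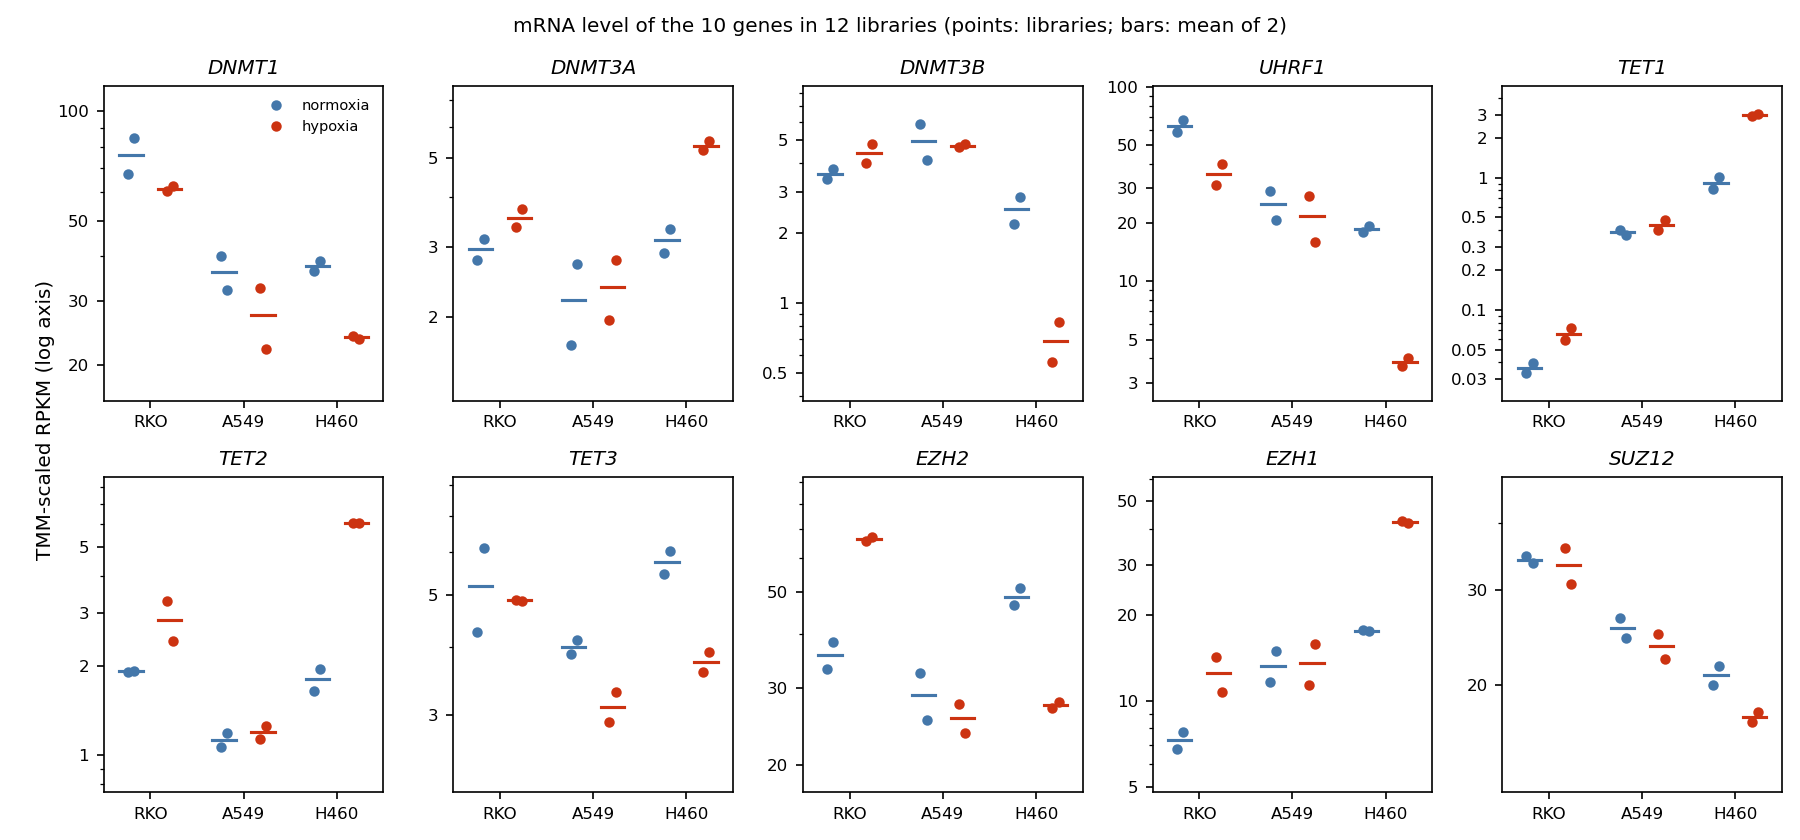
TMM-scaled RPKM (log axis, a separate range in each panel) of the 10 mRNAs in the 12 libraries, by line and oxygen condition; points are libraries and bars the mean of the 2 replicates. In H460 the hypoxia points lie apart from the normoxia points for 10 of 10 genes (86.4% of all genes), while in A549 they do so for 1 of 10, TET3 (49.9% of all genes).

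Maintenance methylation was the arm with the deepest fall, through UHRF1. The UHRF1 level was 17.9 and 19.2 RPKM in normoxic H460 cells and 3.64 and 4.03 in hypoxic ones, a log2 fold change of -2.29 ± 0.10 (SE, adjusted p = 4.90e-09, edgeR). In RKO the levels were 58.6 and 67.1 in normoxia and 31.4 and 40.1 in hypoxia, a log2 fold change of -0.87 ± 0.17 (adjusted p = 0.00316, edgeR). The groups did not overlap in either line, where 70.5% (RKO) and 86.4% (H460) of all genes tested had such separation. In A549 the normoxia values of 29.2 and 20.6 overlapped the hypoxia values of 27.3 and 16.0, with replicate 1 above replicate 2 in each condition, and the change was -0.21 ± 0.27 (adjusted p = 0.739, edgeR).

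DNMT1 mRNA was called in H460 alone. There it went from 36.5 and 38.7 RPKM to 24.1 and 23.7, a log2 fold change of -0.67 ± 0.09 (adjusted p = 2.15e-05, edgeR). In RKO the values were 67.4 and 84.4 in normoxia and 60.3 and 62.2 in hypoxia, and the change of -0.37 ± 0.17 did not pass (adjusted p = 0.101, edgeR). In A549 they were 39.9 and 32.2, then 32.7 and 22.2, with a change of -0.40 ± 0.23 (adjusted p = 0.407, edgeR). Without A549 hypoxia replicate 1, the A549 changes were -0.73 for DNMT1 and -0.67 for UHRF1, both past the fold minimum. Without hypoxia replicate 2 the UHRF1 change was 0.13, and over all fits without 1 library the DNMT1 change ran from -0.73 to -0.14. Replicate 1 lay above replicate 2 in each condition for both genes, so these fits compare unmatched replicates. With the replicate number as a block the UHRF1 change was -0.24 (adjusted p = 0.208, edgeR). The DNMT1 level per unit of UHRF1 was 2.04 and 2.02 in normoxic H460 cells and 6.63 and 5.87 in hypoxic ones. In RKO the same ratio was 1.1496 and 1.26 in normoxia and 1.92 and 1.55 in hypoxia, and in A549 it was 1.37 and 1.57, then 1.20 and 1.39.

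UHRF1 is a known target of E2F factors, which drive genes of DNA replication, so the promoters of the 10 genes were read for E2F-type letters. RefSeq windows of 300 bases on GRCh38.p14, from 250 bases before each start to 50 after it, were available for all 10 genes, 22 windows in total. The letters TTTNNCGC, on either strand, were in 6 of the 22 windows, against 6.89% of the 35116 windows of all genes. They were in 5 of the 10 genes (DNMT1, UHRF1, EZH2, EZH1, SUZ12). Some genes have several windows, and there was no share of genes to set beside that count. In DNMT1 and EZH2 the match did not lie wholly before the start and is not printed. A further match, 160 bases before another start of UHRF1, lies after the first start of that gene and is not printed. The other matches before a start, in UHRF1, EZH1 and SUZ12, are shown to place these letters, in capitals, each read 5′ to 3′ on the strand of its gene.
UHRF1, chr19:4909363-4909422, plus strand, 112 bases before the start: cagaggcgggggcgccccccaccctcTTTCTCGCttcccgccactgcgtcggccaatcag
UHRF1, chr19:4909461-4909500, plus strand, 14 bases before the start: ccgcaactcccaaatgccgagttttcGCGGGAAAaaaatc
EZH1, chr17:42745122-42745181, minus strand, 115 bases before the start: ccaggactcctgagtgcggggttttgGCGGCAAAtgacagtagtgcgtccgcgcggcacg
SUZ12, chr17:31936792-31936851, plus strand, 189 bases before the start: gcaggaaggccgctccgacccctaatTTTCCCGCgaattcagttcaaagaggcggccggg
The genes with these letters moved in different directions in hypoxic H460 cells: UHRF1, DNMT1 and EZH2 were lower, EZH1 was higher and SUZ12 was not called. A match describes letters and does not show binding. The core letters of the hypoxia response element, ACGTG or GCGTG on either strand, were in 14 of the 22 windows, against 48.4% of all windows. They were in 9 of the 10 genes, again with no share of genes to set beside that count.

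The enzymes of de novo methylation moved in opposite directions in H460. DNMT3B went from 2.18 and 2.87 RPKM in normoxia to 0.556 and 0.826 in hypoxia, a log2 fold change of -1.87 ± 0.21 (adjusted p = 7.93e-06, edgeR). DNMT3A went from 2.89 and 3.33 to 5.24 and 5.52, a change of 0.77 ± 0.11 (adjusted p = 6.80e-05, edgeR). Neither gene had overlapping groups, and 86.4% of all genes tested in H460 had none. The DNMT3A call in H460 rests on the scaling, because scaling by library size alone lowers the median log2 fold change of all genes there by 0.35 and gives DNMT3A 0.42, under the fold minimum, as did limma on the deposited RPKM (0.41 with a pseudocount of 0.1). In RKO and A549 neither gene was called. RKO levels were 2.78 and 3.13, then 3.36 and 3.74 for DNMT3A, and 3.40 and 3.77, then 3.98 and 4.85 for DNMT3B. A549 levels were 1.69 and 2.72, then 1.96 and 2.77 for DNMT3A, and 5.86 and 4.12, then 4.67 and 4.84 for DNMT3B. The level of DNMT3A over that of DNMT3B was 1.33 and 1.16 in normoxic H460 cells and 9.42 and 6.68 in hypoxic ones. It lay between 0.771 and 0.844 in the 4 RKO libraries and between 0.289 and 0.660 in the 4 A549 libraries. The summed level of DNMT3A and DNMT3B in H460 was 5.08 and 6.20 in normoxia and 5.79 and 6.35 in hypoxia, so the groups overlapped in the sum.

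The TET genes also split in H460, with TET1 and TET2 higher and TET3 lower. TET2 was at 1.65 and 1.95 RPKM in normoxia and at 6.03 and 6.06 in hypoxia, a log2 fold change of 1.73 ± 0.10 (adjusted p = 3.83e-08, edgeR). TET1 went from 0.814 and 1.00 to 2.92 and 3.03, a change of 1.69 ± 0.13 (adjusted p = 3.57e-07, edgeR). TET3 went from 5.48 and 6.04 to 3.60 and 3.92, a change of -0.63 ± 0.10 (adjusted p = 9.50e-05, edgeR). All 3 genes had groups that did not overlap, as did 86.4% of all genes tested in H460. Without H460 hypoxia replicate 1 the TET3 change was -0.55, under the fold minimum. TET3 made up 69.0% and 67.2% of the summed TET level in normoxic H460 cells and 28.7% and 30.1% in hypoxic ones, where TET2 took 48.0% and 46.6%. The summed TET level was 7.94 and 8.99 in normoxia and 12.6 and 13.003 in hypoxia.

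In RKO, TET2 was at 1.91 and 1.92 RPKM in normoxia and at 3.29 and 2.42 in hypoxia. Its change of 0.52 ± 0.18 had an adjusted p of 0.0447 (edgeR), but the fold change of 1.43 was under the minimum. Without RKO hypoxia replicate 2 the change was 0.73 and passed, and with library size scaling it was 0.60 and passed. TET1 had 12 and 15 counts in normoxic and 23 and 26 in hypoxic RKO libraries, and it was tested only because its hypoxia libraries passed the filter on low counts. Its change of 0.79 ± 0.45 was not called (adjusted p = 0.195, edgeR), although in the joint fit of 12 libraries it was 0.85 and passed (adjusted p = 0.0569, edgeR). TET3 in RKO was at 4.28 and 6.11, then 4.90 and 4.87, and was not called. In A549, TET1 (0.403 and 0.369, then 0.400 and 0.480) and TET2 (1.06 and 1.19, then 1.130 and 1.26) had overlapping groups. TET3 in A549 was at 3.89 and 4.13 in normoxia and at 2.91 and 3.30 in hypoxia, and its change of -0.38 ± 0.19 had the smallest adjusted p of the 10 genes in that line, 0.341 (edgeR).

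EZH2 was the gene called in opposite directions in 2 lines. In RKO it went from 33.3 and 38.3 RPKM to 65.9 and 67.3, a log2 fold change of 0.83 ± 0.15 (adjusted p = 0.00203, edgeR). In H460 it went from 46.7 and 51.2 to 27.1 and 27.9, a change of -0.85 ± 0.09 (adjusted p = 3.95e-06, edgeR). In neither line did the groups overlap, a separation that 70.5% (RKO) and 86.4% (H460) of all genes tested had. A549 values of 32.6 and 25.4 in normoxia overlapped those of 27.6 and 23.6 in hypoxia, and the change was -0.19 ± 0.19 (adjusted p = 0.660, edgeR).

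EZH1 was higher in hypoxia in both RKO and H460. In H460 its level went from 17.7 and 17.5 RPKM to 42.6 and 41.8, a log2 fold change of 1.24 ± 0.08 (adjusted p = 1.14e-07, edgeR). In RKO it went from 6.79 and 7.75 to 14.3 and 10.8, a change of 0.72 ± 0.18 (adjusted p = 0.00974, edgeR). Without RKO hypoxia replicate 1, the higher of the hypoxia pair, that change was 0.55 and fell under the fold minimum. In A549 the values were 11.6 and 14.9, then 11.3 and 15.8, with a change of 0.02 ± 0.21 (adjusted p = 0.977, edgeR).

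The ratio of EZH2 to EZH1 therefore crossed 1 in H460. It was 2.64 and 2.92 in normoxia and 0.636 and 0.667 in hypoxia. In RKO it was 4.91 and 4.94, then 4.62 and 6.25, so the groups overlapped. In A549 it was 2.81 and 1.70, then 2.44 and 1.495, with replicate 1 above replicate 2 in each condition. The summed level of EZH1 and EZH2 in H460 was 64.4 and 68.7 in normoxia and 69.6 and 69.8 in hypoxia. In RKO it was 40.1 and 46.1, then 80.1 and 78.0. The H460 sum rests on the scaling. In the deposited RPKM, EZH2 in H460 went from 48.1 and 53.8 to 21.3 and 23.1, and EZH1 from 18.3 and 18.4 to 33.4 and 34.7. The sum of these was lower in hypoxia.

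SUZ12 was called in no line. Its levels were 34.7 and 33.7 RPKM, then 35.9 and 30.8 in RKO, and 26.7 and 24.5, then 24.9 and 22.4 in A549, with overlapping groups in both. In H460 they were 20.1 and 21.8, then 17.1 and 17.8. The groups there did not overlap, as for 86.4% of all genes tested in H460. The change of -0.27 ± 0.09 had an adjusted p of 0.0139 (edgeR) with a fold change under the minimum. With library size scaling that change was -0.63 and passed. It also passed with limma on the deposited RPKM, at -0.62 with a pseudocount of 0.1 and -0.59 with a pseudocount of 1. The table lists the pseudogene SUZ12P1 apart, with 173 to 459 counts against 1815 to 6527 for SUZ12, and the split of reads between the 2 is uncertain where their sequences match. The level of SUZ12 over the sum of EZH1 and EZH2 was 0.864 and 0.731 in normoxic RKO cells and 0.448 and 0.394 in hypoxic ones. In H460 it was 0.312 and 0.317, then 0.246 and 0.256.

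**Figure D2:**
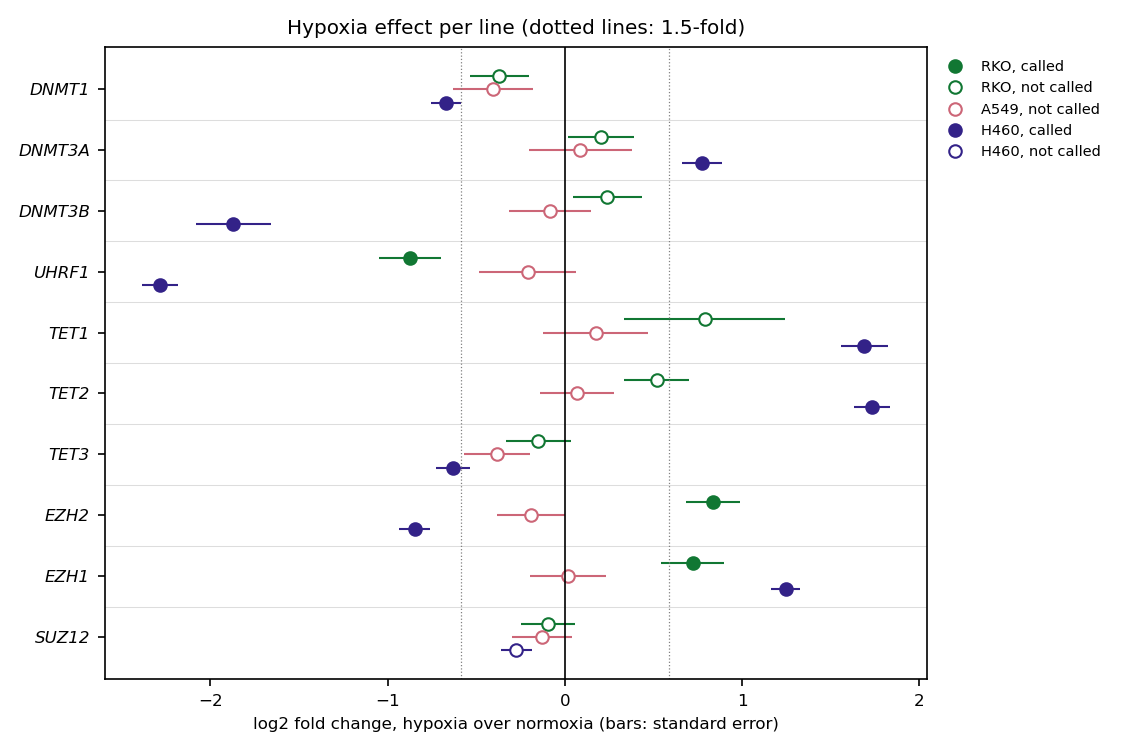
The log2 fold change (hypoxia over normoxia, x axis) of each gene in each line, with bars for the standard error, filled points for called genes and dotted lines at a fold change of 1.5. EZH2 lies right of 0 in RKO at 0.83 and left of it in H460 at -0.85, and no A549 point is filled.

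**Figure D3:**
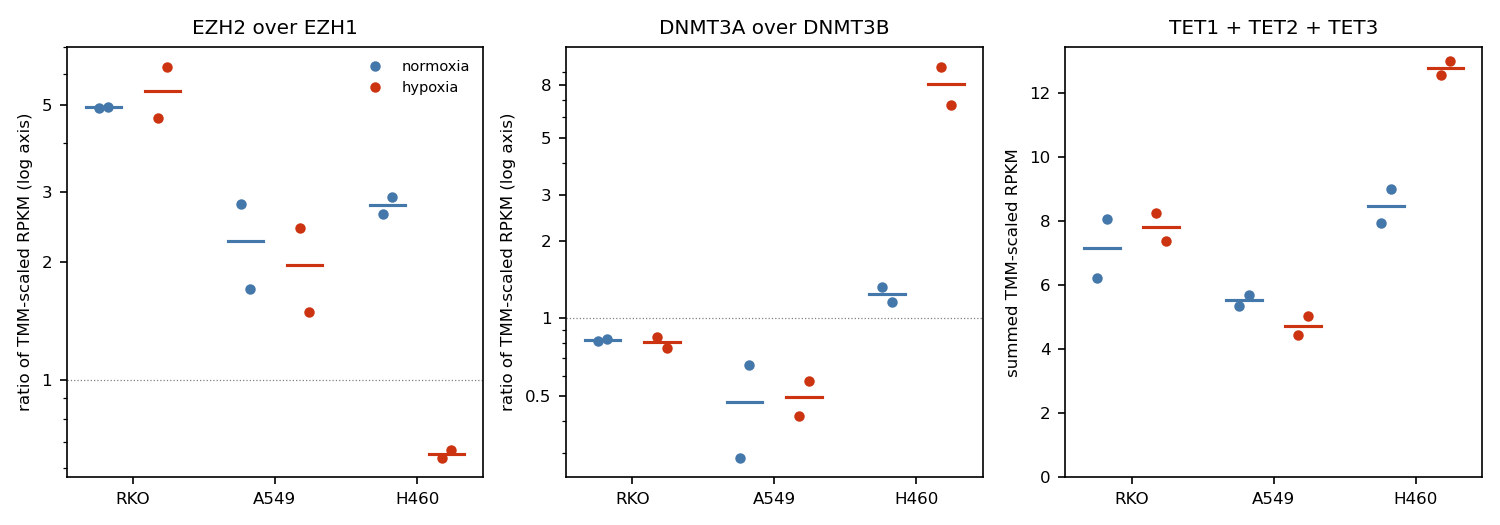
Ratios of TMM-scaled RPKM (log axes, dotted line at 1) of EZH2 to EZH1 and of DNMT3A to DNMT3B, and the summed level of the TET genes (linear axis from 0), in each library with the mean of each pair as a bar. The hypoxic H460 libraries stand apart, at 0.636 and 0.667 for EZH2 over EZH1 and at 9.42 and 6.68 for DNMT3A over DNMT3B.

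In A549, 0 of the 10 genes were called by edgeR, 0 had an unadjusted p under 0.05 in that test, where 16.6% of all genes did, and 0 were called by DESeq2 or by limma on log2 RPKM. The smallest unadjusted p was 0.0679, for TET3. In RKO 5 of the 10 and in H460 10 of the 10 were under 0.05 unadjusted, where 47.5% and 74.9% of all genes were. The spread between A549 replicates was the widest of the lines. The biological coefficient of variation was 18.9% there against 15.0% in RKO and 7.91% in H460, and over all genes the log2 fold changes had median standard errors of 0.223, 0.184 and 0.114 in the same order. In simulated A549 counts the same test recovered 63% of genes changed by 1 on the log2 scale and 100% of those changed by 2. It also called 28 unchanged genes among 14251. Changes were put only into genes above a minimum CPM that TET1 in A549 did not reach, and no effect of the replicate number was simulated. With the replicate number as a block, the A549 change of DNMT1 was -0.42 (adjusted p = 0.0230, edgeR), still under the fold minimum.

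Whether the response differed between lines was tested in a joint edgeR fit of the 12 libraries, as the difference of 2 log2 fold changes, called at adjusted p under 0.1 alone. Among all 15595 genes tested, 14.6% differed for RKO against A549, 37.6% for RKO against H460 and 36% for A549 against H460. Of the 10 genes, 2, 4 and 6 differed in these contrasts. The last 2 of them share the H460 libraries, and each line enters 2 of the 3 contrasts.

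EZH2 differed in all 3 contrasts. Its change in RKO exceeded that in A549 by 1.07 ± 0.21 (adjusted p = 0.00840, edgeR) and that in H460 by 1.72 ± 0.21 (adjusted p = 8.39e-05, edgeR). The A549 change exceeded the H460 change by 0.65 ± 0.21 (adjusted p = 0.0313, edgeR), a difference that did not pass without A549 normoxia replicate 2, A549 hypoxia replicate 1, H460 normoxia replicate 2 or H460 hypoxia replicate 1, where it lay between 0.48 and 0.60. The UHRF1 change in H460 lay below that in RKO (difference 1.46 ± 0.32, adjusted p = 0.00412) and that in A549 (2.07 ± 0.32, adjusted p = 0.000567, edgeR for each). The DNMT3B change in H460 also lay below that in RKO (2.16 ± 0.33, adjusted p = 0.000400) and that in A549 (1.79 ± 0.33, adjusted p = 0.00166, edgeR for each). The TET2 change in H460 lay above that in RKO (difference -1.17 ± 0.23, adjusted p = 0.00214) and that in A549 (-1.67 ± 0.23, adjusted p = 0.000302, edgeR for each).

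For TET1 the A549 change lay below that of H460 (-1.52 ± 0.30, adjusted p = 0.00219, edgeR), and for EZH1 likewise (-1.23 ± 0.26, adjusted p = 0.00359, edgeR). EZH1 also differed between RKO and A549 by 0.75 ± 0.26 (adjusted p = 0.0881, edgeR), but this call was lost in 9 of the 12 fits that left out a library, with values between 0.53 and 0.85, and with RLE scaling (0.71, adjusted p = 0.102). With the replicate number as a block, further genes passed. UHRF1 differed between RKO and A549 (-0.59, adjusted p = 0.0194), and DNMT3A between A549 and H460 (-0.67, adjusted p = 0.0207, edgeR). Between RKO and H460 the block added DNMT1 (0.35, adjusted p = 0.0974), DNMT3A (-0.53, adjusted p = 0.0516), TET3 (0.55, adjusted p = 0.0437) and EZH1 (-0.49, adjusted p = 0.0639, edgeR), 8 genes in all. SUZ12 was called in no contrast with or without the block. Its differences were 0.08 ± 0.18, 0.22 ± 0.18 and 0.15 ± 0.18, and 2 of them passed with library size scaling, RKO minus H460 at 0.61 (adjusted p = 0.0174) and A549 minus H460 at 0.41 (adjusted p = 0.0993, edgeR). The first also passed with limma at a pseudocount of 0.1 (0.61, adjusted p = 0.0279).

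Leaving out a library also added calls. For RKO minus A549, UHRF1 passed without A549 normoxia replicate 1 (-0.89) or A549 hypoxia replicate 2 (-0.95), and TET2 without RKO hypoxia replicate 2 (0.71). For RKO minus H460, TET3 passed without RKO normoxia replicate 2 (0.81) or any of the 4 A549 libraries (0.53), and EZH1 without RKO hypoxia replicate 1 (-0.69). For A549 minus H460, DNMT3A passed without A549 normoxia replicate 1 (-0.99) or A549 hypoxia replicate 2 (-0.96).

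**Figure D4:**
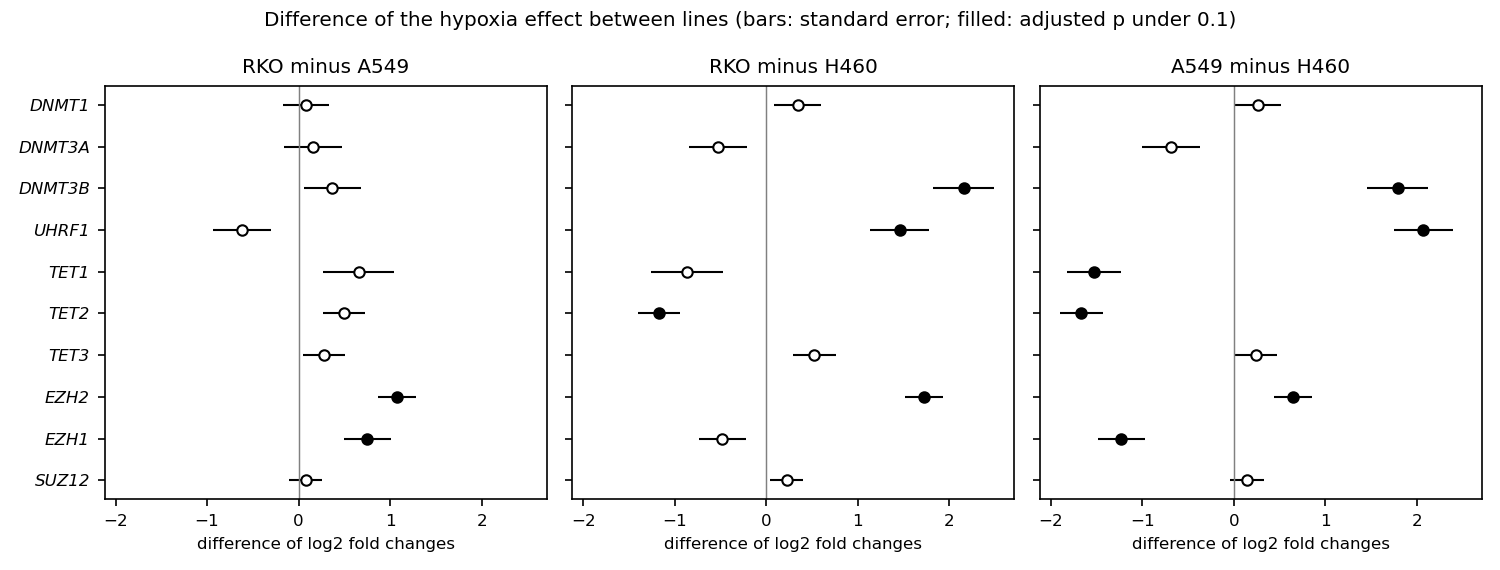
Difference between lines in the log2 fold change of each gene (x axis), with bars for the standard error and filled points for an adjusted p under 0.1 in the joint fit. The panel of RKO minus A549 has 2 filled points, RKO minus H460 has 4 and A549 minus H460 has 6.

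In normoxia the lines already differed in these mRNAs. With the rule of adjusted p under 0.1 and fold over 1.5, 60.2% of all genes differed for RKO against A549, 61.9% for RKO against H460 and 52.1% for A549 against H460. Of the 10 genes, 5, 5 and 4 did, near or below those shares. TET1 was the gene with the widest range, at a mean of 0.0363 ± 0.0043 RPKM (SD, n = 2) in RKO, 0.386 ± 0.024 in A549 and 0.909 ± 0.134 in H460. RKO lay below A549 by 3.39 ± 0.28 on the log2 scale and below H460 by 4.63 ± 0.27, and A549 lay below H460 by 1.24 ± 0.21 (adjusted p of 6.43e-08, 1.72e-09 and 0.000171, edgeR).

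RKO was the line with the most maintenance methylation mRNA. Its DNMT1 level exceeded A549 by 1.07 ± 0.18 and H460 by 1.01 ± 0.18 on the log2 scale (adjusted p of 0.000107 and 0.000175, edgeR), while A549 and H460 did not differ beyond their spread (-0.06 ± 0.18, adjusted p = 0.791). UHRF1 in RKO exceeded A549 by 1.34 ± 0.23 and H460 by 1.76 ± 0.23 (adjusted p of 0.000110 and 8.97e-06, edgeR), and A549 against H460 was not called (0.42 ± 0.22, adjusted p = 0.118). DNMT3B was higher in A549 than in H460 by 0.98 ± 0.23 (adjusted p = 0.00184, edgeR), and DNMT3A was called in no pair of lines with all libraries in the fit. TET2 in A549 lay below RKO (difference 0.76 ± 0.17, adjusted p = 0.000885) and below H460 (-0.68 ± 0.17, adjusted p = 0.00288, edgeR for each), and TET3 was called in no pair with all libraries.

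Among the PRC2 genes, EZH1 in RKO was lower than in A549 (-0.87 ± 0.18, adjusted p = 0.000769) and than in H460 (-1.28 ± 0.19, adjusted p = 2.61e-05, edgeR for each). EZH2 was lower in A549 than in H460 (-0.75 ± 0.15, adjusted p = 0.000510, edgeR), and SUZ12 was higher in RKO than in H460 (0.71 ± 0.13, adjusted p = 0.000216, edgeR). Leaving out A549 normoxia replicate 2 brought EZH2 between A549 and H460 to -0.58, under the fold minimum, and leaving out H460 normoxia replicate 2 did so for TET2 (-0.56). Leaving out A549 normoxia replicate 2 added DNMT3A (0.80) and DNMT3B (-0.71) for RKO minus A549, and DNMT3A (-0.88), UHRF1 (0.66) and EZH1 (-0.60) for A549 minus H460. Without RKO normoxia replicate 1 TET3 passed for RKO minus A549 (0.60), without H460 normoxia replicate 1 DNMT3A (-0.60) and TET3 (-0.59) passed for A549 minus H460, and without H460 normoxia replicate 2 DNMT3B passed for RKO minus H460 (0.70). Over all fits that left out a library, 5 to 7, 5 to 6 and 3 to 6 of the 10 genes were called in the 3 pairs. The replicate block changed no call between lines in normoxia.

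The partners of these enzymes were read from lists of the pathway, whose counts stand against the shares of all genes called higher and lower, 18.8% and 15.1% (RKO), 2.22% and 0.456% (A549), and 24.6% and 27.3% (H460). Of 10 partners of DNA methylation, 9 were tested in each line. In RKO 3 were lower and none higher, in A549 1 was lower, and in H460 4 were lower and 1 higher, with median log2 fold changes of -0.39, -0.15 and -0.16 against 0.01, -0.01 and -0.04 over all genes tested. MAT2A, which makes the methyl donor S-adenosylmethionine, was lower in all 3 lines, by -1.46 ± 0.22, -1.25 ± 0.22 and -1.134 ± 0.10 in RKO, A549 and H460 (adjusted p of 0.000751, 0.0297 and 9.14e-07, edgeR). Its level was 429 and 476 RPKM in normoxic and 209 and 209 in hypoxic H460 cells. In A549 it was 283 and 416, then 156 and 140, and in RKO 105 and 125, then 33.6 and 53.7. The groups did not overlap in any line, as for 70.5% (RKO), 49.9% (A549) and 86.4% (H460) of all genes tested. The lowest partner in H460 was PCNA, the sliding clamp of replication, at -2.51 ± 0.09 (adjusted p = 1.62e-09, edgeR), and the gene called higher there was UHRF2, the paralog of UHRF1, at 0.77 ± 0.09 (adjusted p = 9.38e-06, edgeR).

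Of 10 other PRC2 subunits, all tested, 1 was higher in RKO, none was called in A549, and 4 were higher and 1 lower in H460, with median changes of -0.13, -0.01 and 0.25. In H460, 24.6% of all genes were higher and 27.3% lower. PHF1, an accessory subunit that binds PRC2 to chromatin, was the highest in RKO (1.07 ± 0.20, adjusted p = 0.00264) and in H460 (2.18 ± 0.11, adjusted p = 1.14e-08, edgeR for each). RBBP4, a histone-binding subunit, was the lowest in H460 at -0.67 ± 0.08 (adjusted p = 1.72e-05, edgeR). Of 22 subunits of PRC1, the complex that ubiquitinates histone H2A, 2 were higher in RKO, none was called in A549, and 11 were higher and 3 lower in H460, with median changes of -0.04, -0.03 and 0.53. CBX7, a reader of the PRC2 mark, was the highest in RKO at 1.21 ± 0.18 (adjusted p = 0.000782, edgeR). In H460, RYBP was the highest at 1.83 ± 0.09 (adjusted p = 1.23e-08) and PCGF6 the lowest at -1.42 ± 0.13 (adjusted p = 1.44e-06, edgeR for each). Of 7 enzymes and cofactors that oppose Polycomb marks, 6 were tested. In RKO, 1 of them was lower, USP16, a deubiquitinase of histone H2A (-0.69 ± 0.16, adjusted p = 0.00719, edgeR). In H460, 2 were higher, led by the histone demethylase KDM6B at 1.33 ± 0.09 (adjusted p = 8.92e-08, edgeR). The other was ASXL1, a cofactor of the deubiquitinase BAP1, at 0.72 ± 0.09 (adjusted p = 1.70e-05, edgeR). In A549 none was called.

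Genes of DNA replication moved beside UHRF1, DNMT1 and EZH2 in H460. Of 20 S-phase genes, 19 were lower there, the lowest being E2F1 at -3.76 ± 0.12 (adjusted p = 9.33e-10, edgeR), and the list median was -2.36. Their summed level was 704 and 716 RPKM in normoxic and 243 and 238 in hypoxic H460 cells. In RKO, 9 were lower, the lowest being MCM5 at -1.07 ± 0.15 (adjusted p = 0.000582), and 1 was higher, TK1 at 0.61 ± 0.15 (adjusted p = 0.00915, edgeR for each). The median there was -0.48 and the sum went from 1150 and 1183 to 865 and 864, while EZH2 rose. In A549 none was called, with a median of -0.28 and a sum of 869 and 614 in normoxia and 768 and 523 in hypoxia, so replicate 1 exceeded replicate 2 in each condition as it did for UHRF1 and EZH2. Of 12 mitotic genes, none was called in A549 and 4 were lower in RKO, led by CCNB1 at -1.16 ± 0.16 (adjusted p = 0.000463, edgeR). In H460, 2 were lower, led by BUB1B at -0.73 ± 0.10 (adjusted p = 3.02e-05, edgeR), and 1 was higher, BUB1, at 0.75 ± 0.10 (adjusted p = 2.52e-05, edgeR). The list medians were -0.25, -0.18 and -0.39 for RKO, A549 and H460. The part of the cell cycle in the changes of the 10 genes was not tested.

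**Figure D5:**
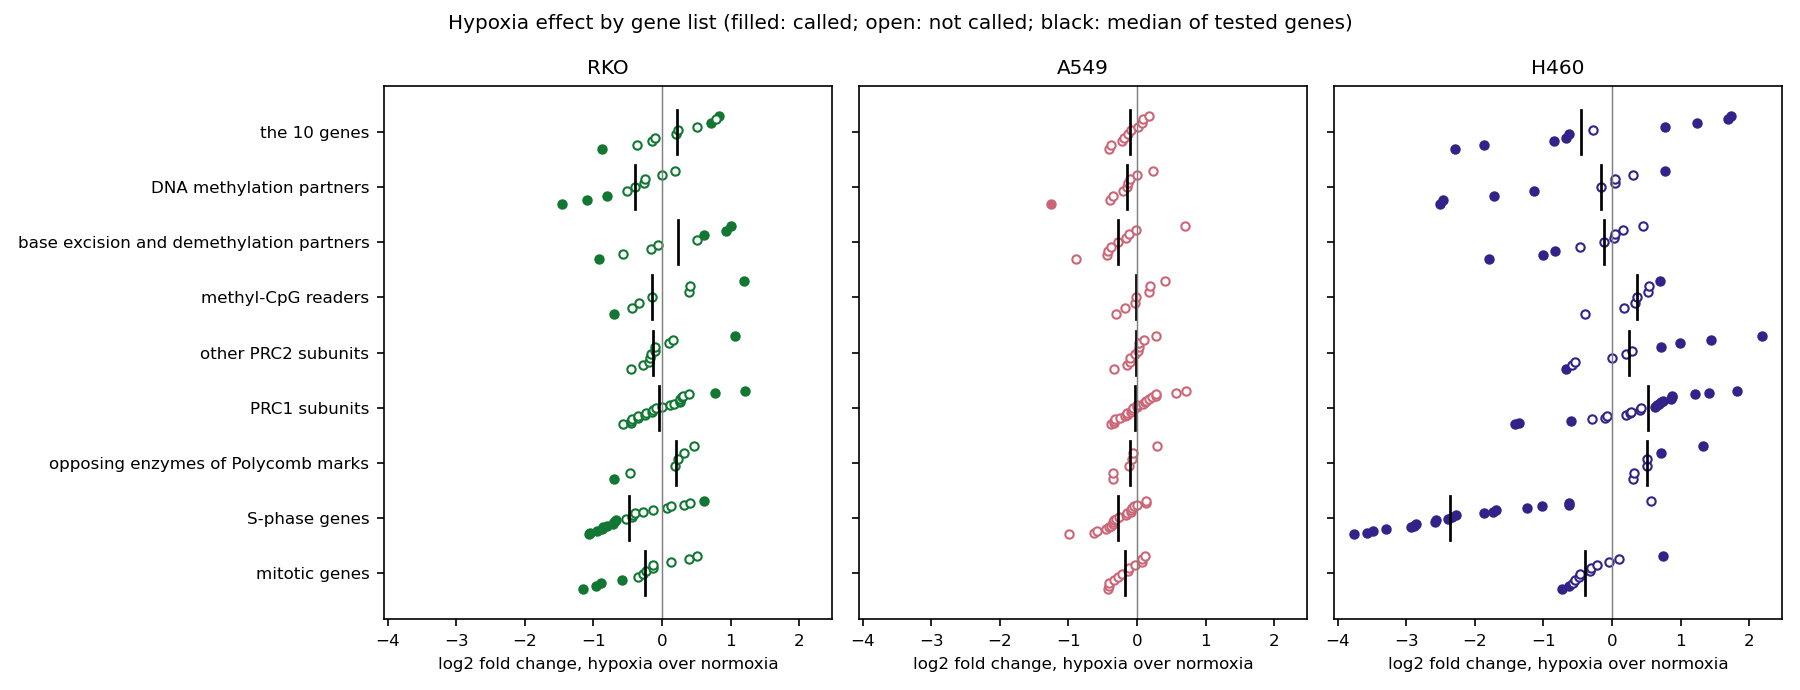
The log2 fold change (hypoxia over normoxia, x axis) of every tested gene of each list in each line, with filled points for called genes and a black line at the median of the tested genes. The S-phase list has its median at -2.36 in H460, -0.48 in RKO and -0.28 in A549, and the 10 genes spread to both sides of 0 in H460.

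For 9 of the 10 genes, the genes with the most similar pattern over the 12 libraries were listed by the Pearson coefficient of log2 CPM after the mean of each line was subtracted, among 12424 genes with at least 100 counts on average. The libraries share lines and conditions, and the large H460 changes weigh most in this measure, so it is given as a description. UHRF1 was most like MCM3 (0.994), POLE2 (0.993) and TFDP1 (0.992), and TET2 was most like AFF4 (0.993), ARNT (0.993) and MKLN1 (0.992). EZH1 was most like MADD, TESK1 and PTAR1, with coefficients of 0.986 to 0.990. DNMT3B was most like MIR600HG (0.982), TET1 most like PGAP1 (0.988), and EZH2 most like LOC81691 (0.979). DNMT1 was most like GUSBP1 (0.971) and TET3 most like TECPR1 (0.971), and the coefficient of SUZ12 with its nearest gene, RFC5, was 0.924.

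On GRCh37, as the deposited table places them, UHRF1 spans chr19:4903092-4962165, DNMT1 chr19:10244022-10305755, DNMT3A chr2:25455830-25565459 and DNMT3B chr20:31350191-31397162. TET1 spans chr10:70320117-70454239, TET2 chr4:106067032-106200960 and TET3 chr2:74213531-74335302. EZH2 spans chr7:148504464-148581441, EZH1 chr17:40852293-40897071 and SUZ12 chr17:30264044-30328057. Same-strand microRNA genes lie within DNMT3A (MIR1301, 82 bases), UHRF1 (MIR4747, 54 bases) and EZH1 (MIR6780A, 68 bases).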

How the data were processed

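The authors aligned single-end, strand-specific poly(A)+ reads to GRCh37/hg19 with TopHat2 2.0.13, removed poorly mapped reads and counted exon reads with HTSeq 0.6.1 in its reverse-stranded mode, per the labels. They deposited counts for 25369 genes, which entered every main fit, and RPKM values, which equal the count over gene length and library total and served as an alternative unit. Levels are RPKM rescaled here with TMM factors of all 12 libraries. Fits within a line used that line's own factors, so fitted changes can differ slightly from ratios of levels. Genes were tested where 2 or more libraries of the line exceeded 0.5 CPM by library total alone, without the factors. Tests used edgeR 4.0.16 in R 4.3.3, alternatives used DESeq2 1.42.0 and limma 3.58.1, and the code was tested on simulated data. Same-numbered replicates deviated together in every line (correlations of 0.34 in RKO, 0.34 in A549 and 0.11 in H460), so a fit with the number as a block is given where it changes a call. The members and lists were chosen with earlier results of these data known. Named genes are the 10 members, at most the highest and lowest called gene of each list and line, genes called alike in all 3 lines, and up to 3 most similar genes per member. The values of CDX2, KRT7, ASXL1 and SUZ12P1 were seen before these genes were chosen for naming. The genes most similar to DNMT3A are not reported here. Replicates differed by more than counting noise in every group, and depth limits mainly TET1 in RKO.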

Additional observations from a re-analysis of the deposited data

Results flagged for a closer look

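The results below are those of the 10 genes whose hypoxia response differed between lines when the difference itself was tested (joint edgeR fit, adjusted p under 0.1). Each value is a difference of log2 fold changes, the first line minus the second, and the causes were not tested. For EZH2 the differences were 1.07 (RKO minus A549), 1.72 (RKO minus H460) and 0.65 (A549 minus H460). Each hypoxic RKO library lay above both normoxic ones for EZH2, while each hypoxic H460 library lay below both. Groups did not overlap for 70.5% of all genes tested in RKO and 86.4% in H460. For UHRF1 the differences were 1.46 (RKO minus H460) and 2.07 (A549 minus H460). For DNMT3B they were 2.16 (RKO minus H460) and 1.79 (A549 minus H460). For TET2 they were -1.17 (RKO minus H460) and -1.67 (A549 minus H460), and for TET1 -1.52 (A549 minus H460). For EZH1 they were 0.75 (RKO minus A549) and -1.23 (A549 minus H460). H460 grew in another medium than RKO and A549, so line and medium cannot be told apart in the differences that include it.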

How the results depend on the processing

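Within lines, the counts of called genes among the 10 were the same or within 1.5 times under DESeq2, RLE factors, library size only, both filters, the joint fit, both thresholds, limma with either pseudocount and the replicate block, and the block changed no call within a line or in normoxia. Leaving out 1 library gave 1 to 3 genes higher in RKO (1 without hypoxia replicate 1) and 0 to 2 lower in A549 (2 without hypoxia replicate 1). Genes differing between RKO and A549 numbered 1 with RLE factors and 1 to 3 without 1 library. Genes differing between RKO and H460 numbered 7 with library size only, 8 with the replicate block and 8 with limma at a pseudocount of 0.1. The cause was not tested. Library size scaling moves the median log2 fold change of all genes by 0.083 (RKO), -0.091 (A549) and -0.352 (H460). Values that changed sign were small and not called. In A549 they were -0.0098 for DNMT3A, -0.025 for TET2 and -0.079 for EZH1 with library size only, -0.021 for TET2 and -0.081 for EZH1 with limma at 0.1, and -0.013 for TET2 and -0.076 for EZH1 with limma at 1. Without 1 library, A549 values ranged from -0.21 to 0.46 (DNMT3A), -0.32 to 0.20 (DNMT3B), -0.23 to 0.22 (EZH1), -0.37 to 0.0036 (EZH2), -0.0090 to 0.15 (TET2) and -0.67 to 0.13 (UHRF1). RKO values ranged from -0.16 to 0.019 (SUZ12) and -0.38 to 0.13 (TET3). Differences in response ranged from -0.17 to 0.39 (DNMT1), -0.22 to 0.46 (DNMT3A) and -0.037 to 0.20 (SUZ12) for RKO minus A549, and from -0.046 to 0.51 (DNMT1) for A549 minus H460. Normoxia differences ranged from -0.18 to 0.016 (DNMT3A), -0.031 to 0.20 (TET2) and -0.44 to 0.072 (TET3) for RKO minus H460, and from -0.22 to 0.088 (DNMT1) for A549 minus H460. Depth limits TET1 in RKO, at 12 to 26 counts a library.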

Other observations

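Of 10 partners of base excision and demethylation, 8 were tested in RKO and 9 in each other line. In RKO 3 were higher, led by the stress-induced GADD45A (1.00 ± 0.21, adjusted p = 0.00399), and 1 was lower, the abasic-site endonuclease APEX1 (-0.91 ± 0.15, adjusted p = 0.00120, edgeR for each). In A549 none was called. In H460 none was higher and 3 were lower. The lowest of them was GADD45G, at 68 and 66 counts in normoxia and 15 and 18 counts in hypoxia. GADD45G passed the filter on low counts only through its normoxia libraries, so no test result is given for it. The list medians were 0.23 in RKO, -0.27 in A549 and -0.12 in H460.

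Of 7 methyl-CpG readers, all tested, 1 was higher in RKO (ZBTB38, 1.19 ± 0.17, adjusted p = 0.000624) and 1 lower (MBD2, -0.71 ± 0.16, adjusted p = 0.00528, edgeR for each). None was called in A549, and 1 was higher in H460 (ZBTB4, 0.70 ± 0.10, adjusted p = 6.88e-05, edgeR). Medians were -0.14, -0.01 and 0.36 in RKO, A549 and H460.

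Of 10 germline genes that DNA methylation usually keeps silent, 8 to 10 were under 0.5 CPM in each library and 6 or 7 were at 0 counts. None was tested in RKO. In A549 1 was tested and not called, and in H460 STK31 was tested and lower (-0.73 ± 0.35, adjusted p = 0.0768, edgeR). No germline gene was called higher in any line, but at most 1 of the 10 was tested in each, so the list as a whole was not tested.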
